A study of Homo sapiens with 18 samples.

Results

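The genes described here are 34 genes of the lysosome, of autophagy and of their control by the transcription factor TFEB, out of 19775 genes with a probe set of their own on the arrays. They were listed by name and by role, with earlier results of these data known. The list holds 3 proteins of the lysosomal membrane, 10 acid hydrolases and their helper proteins, 7 subunits of the proton pump, 9 autophagy genes and 5 regulators. A probe set was taken for a gene when the platform annotation gave it that symbol alone. Where a gene had several, the one with the highest mean log2(signal + 16) over all arrays stood for the gene. All 34 genes were found, on 88 probe sets, and 33 were bright enough to be tested. The exception was TFEB itself.

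Lysosomes break down material delivered by endocytosis and autophagy. A proton pump, the V-ATPase, acidifies them, and the soluble hydrolases work at that low pH. In autophagy a double membrane closes around cytoplasm, and proteins of the LC3 and GABARAP family are joined to it before it fuses with the lysosome. TFEB and its relative TFE3 bind a short motif centred on CACGTG in many lysosomal promoters. They are held in the cytosol when mTORC1 phosphorylates them at the lysosome, a step in which folliculin (FLCN), its partners FNIP1 and FNIP2, and the RRAGC and RRAGD GTPases take part.

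The cells were Caco-2, an established line from a human colonic tumour that is used as a model of intestinal epithelium. Control cells were untreated and grown in DMEM, and depleted cells were grown in DMEM without riboflavin, the vitamin from which the flavin cofactors FMN and FAD are made. Both media held 10% foetal calf serum, and the labels mention dialysed serum without saying which groups received it. Cells were collected at 24, 48 and 72 h, with 3 arrays in each of the 6 groups and 18 arrays in all. The arrays were numbered in 3 runs of 6 that each held 1 array of every group, called sets 1, 2 and 3 here. Nothing in the labels says that the sets were separate cultures, so p-values measure the spread between these samples, which may be technical.

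Values are MAS5 signals on a linear scale. Their number, 3 arrays a group, limits the precision, and levels are compared only within a probe set. Set 2 stood apart from the others: its median signal lay between 25.7 and 31.3 on each array, against 18.4 to 22.0 in set 1 and 19.1 to 23.3 in set 3. Its highest signal was 27380.2 to 31409.8, against at most 8574.5 on any array of the other sets. In set 2 the titles of both 24 h arrays and of the control array at 48 h carry a suffix after the number that no other array has. What it marks is not stated in the labels, and the depleted 48 h array of that set lacks it. Results are therefore given with and without set 2. Of 7 markers of intestinal epithelium, all were tested and 0 were called in the averaged effect. Their summed signal ran from 18419.3 to 31023.5 on control arrays and from 17808 to 28016.5 on depleted arrays. Of 6 macrophage and leukocyte markers, a cell type rich in lysosomes, 3 were bright enough to test and 0 were called. Their 5 probe sets summed to between 139.3 and 241.3 on control arrays and between 167.5 and 275.6 on depleted arrays, and PTPRC, which marks all leukocytes, had a mean signal of 6.6. Of 6 fibroblast markers 5 were tested, 1 was higher and 1 lower, with sums of 448.3 to 764.1 and 402.8 to 642.5, and their part in the results was not tested.

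TFEB and TFE3 bind a motif centred on CACGTG, so the sequences around it are shown. They come from RefSeq promoters of GRCh38.p14, each 300 bases long, from 250 bases before a gene's start to 50 after it. Of the 34 genes 24 had such a promoter, and 8 of these held CACGTG, against 7.26% of 35116 promoters. The extended form TCACGTGA, which contains it, stood in 5 of the 24, against 0.98% of all. The list was drawn up around control by TFEB, which binds this motif, so a higher share here is not a result of these data. Both motifs read the same on either strand. Members were counted by gene, also the 4 with several promoters, whereas the shares of all were counted by promoter. LAMP1, MCOLN1, CTSA, GAA and FNIP1 held further matches that are not shown. The windows below are 30 bases long, 5′ to 3′ on the strand of the gene, with the motif in capitals.
LAMP1: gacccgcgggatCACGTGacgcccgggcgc
MCOLN1: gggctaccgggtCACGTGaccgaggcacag
CTSA: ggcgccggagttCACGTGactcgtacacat
CTSD: gccggccgcgccCACGTGaccggtccgggt
GAA: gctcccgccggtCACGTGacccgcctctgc
NEU1: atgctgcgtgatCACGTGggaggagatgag
ATP6V0D1: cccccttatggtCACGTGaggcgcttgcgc
FNIP1: tccgcgcgccgcCACGTGatgcggcccccc

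These windows lie at chr13:113297199-113297228 on the plus strand for LAMP1, 28 bases before its start, and at chr19:7522598-7522627 on the plus strand for MCOLN1. CTSA has it at chr20:45891298-45891327 on the plus strand, CTSD at chr11:1763957-1763986 on the minus strand, GAA at chr17:80101538-80101567 on the plus strand and NEU1 at chr6:31862930-31862959 on the minus strand. The windows of ATP6V0D1, at chr16:67481199-67481228, and of FNIP1, at chr5:131797094-131797123, are on the minus strand. By role, 4 of 7 hydrolase promoters, 2 of 2 membrane protein promoters, 1 of 2 pump promoters, 1 of 5 regulator promoters and 0 of 8 autophagy promoters held the motif. A match is a description of these letters, and a missing match says only that they are not in this window.

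In depleted cells a part of the autophagy genes rose, together with 2 pump subunits and TFE3, and none of the 33 tested genes fell. Averaged over the 3 times, 8 of 33 genes were higher in depleted cells by limma with the set as a block (adjusted p at or below 0.05), while 8.55% of all 27307 probe sets tested were called higher and 6.46% lower. The 8 were GABARAPL1, MAP1LC3B, SQSTM1, UVRAG, BECN1, ATP6V1H, ATP6V1C1 and TFE3. At an unadjusted p under 0.05 limma found 13 of 33 genes higher and 0 lower, against 16.1% and 12.7% of all probe sets. Without the block 2 genes were called, GABARAPL1 and MAP1LC3B, and 2.73% of all probe sets were called higher. Without set 2 the genes called were 5: ATP6V1C1, SQSTM1, MAP1LC3B, GABARAPL1 and TFE3, beside 6.87% of all probe sets. Without set 1 they were GABARAPL1, ULK1 and TFE3, beside 1.45%, and without set 3 MAP1LC3B and GABARAPL1, beside 1.23%. In the 18 fits that each left out 1 array, none of the 8 calls was lost. In bulk RNA, fewer cells of a kind and less RNA per cell cannot be told apart.

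**Figure D1:**
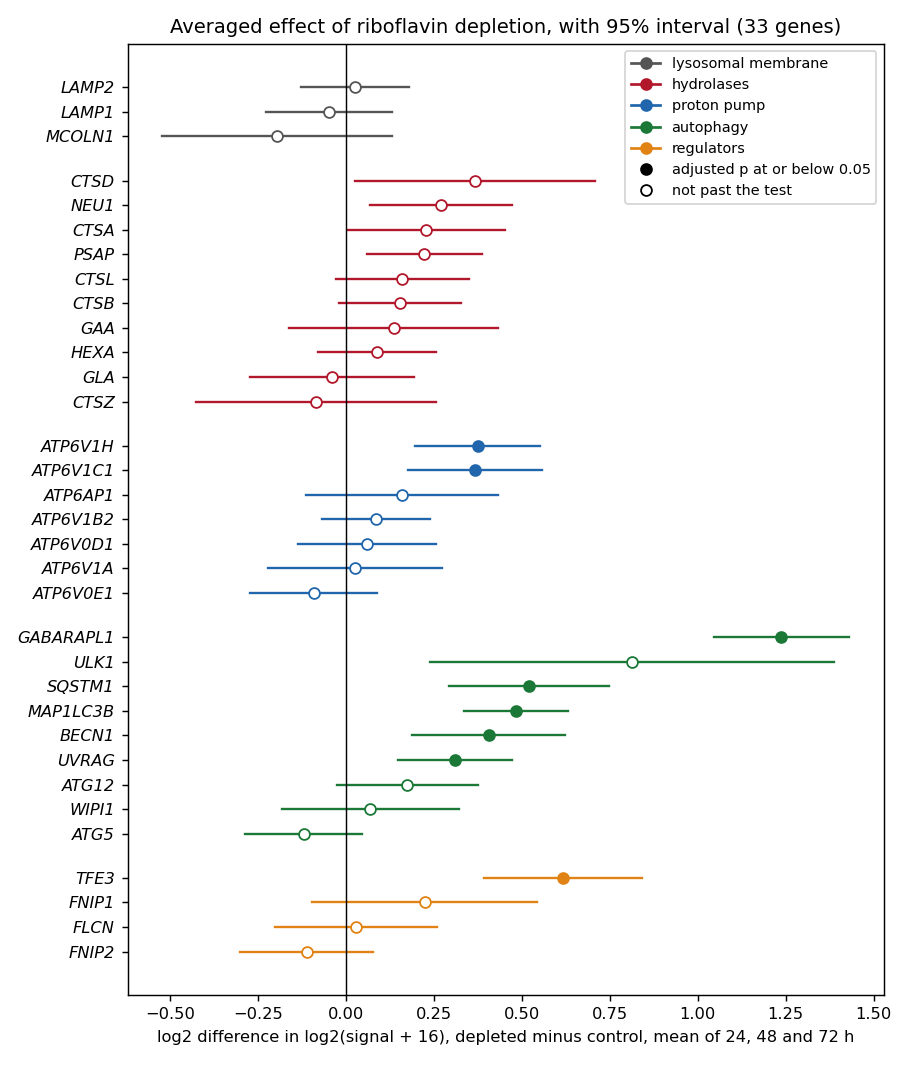
Averaged effect of riboflavin depletion on 33 genes, grouped by role: the x axis gives the log2 difference in log2(signal + 16), depleted minus control, over 24, 48 and 72 h, with points for the estimates and lines for 95% intervals. Filled points, 8 in all, passed the test, and they lie in the autophagy, pump and regulator groups, with GABARAPL1 farthest to the right at 1.24.

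Counted by role, on the probe set that stood for each gene, 5 of 9 autophagy genes rose, 2 of 7 pump subunits and 0 of 10 hydrolases. At an unadjusted p under 0.05 limma gave 6 autophagy genes, 2 pump subunits and 4 hydrolases, all higher, beside 16.1% of all probe sets. The median log2 difference was 0.41 in the autophagy genes, 0.16 in the hydrolases and 0.09 in the pump subunits, against 0.02 over all probe sets tested. Estimates above 0 were held by 8 of 9 autophagy genes, 8 of 10 hydrolases and 6 of 7 pump subunits, against 14745 of all 27307 probe sets tested. Set by set the autophagy median was 0.19, 0.49 and 0.39 in sets 1, 2 and 3, the hydrolase median 0.12, 0.22 and 0.19, and the pump median 0.07, 0.18 and 0.11. No test of the difference between roles was made. Of the 5 called genes with a RefSeq promoter, 0 held CACGTG, and of 18 other tested genes 8 did. These 5 promoters are too few to set a 0 against the 7.26% of all promoters. Autophagy promoters held the motif in 0 of 8, called or not. Whether the motif goes with the calls was not tested.

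By time, 2 of 33 genes were higher at 24 h, MAP1LC3B and GABARAPL1, beside 1.55% of all probe sets higher and 0.813% lower. At 48 h GABARAPL1 alone was higher, beside 0.527% higher and 0.165% lower. At 72 h 6 genes were higher, beside 6.4% higher and 6.9% lower: ATP6V1C1, SQSTM1, MAP1LC3B, GABARAPL1, UVRAG and TFE3. By limma 0 genes were lower at any time, also at an unadjusted p under 0.05, where 9, 8 and 8 were higher at 24, 48 and 72 h. The shares of all probe sets at that p were 9.79%, 10.2% and 13.2% higher and 7.91%, 5.67% and 14.3% lower. Without the block the calls were GABARAPL1 at 24 h, 0 at 48 h, and SQSTM1 and GABARAPL1 at 72 h, beside 0.176%, 0.0696% and 2.23% of all probe sets called higher. Without set 2 they were 1 gene at 24 h, 0 at 48 h and 4 at 72 h, the last being ATP6V1C1, SQSTM1, GABARAPL1 and TFE3, beside 0.575%, 0.0842% and 4.96% of all probe sets. Without set 1, and likewise without set 3, 0 genes were called at 24 and 48 h and GABARAPL1 alone at 72 h, where 0.736% and 1.29% of all probe sets were called higher. With no filter on dim probe sets the calls of MAP1LC3B at 24 and 72 h, of GABARAPL1 at 48 h and of ATP6V1C1 and UVRAG at 72 h were lost (adjusted p = 0.0515 to 0.15). Centring arrays on the 75th percentile lost those of MAP1LC3B at 24 h (0.0654) and UVRAG at 72 h (0.0521). The median over the autophagy genes was 0.42, 0.32 and 0.42 at 24, 48 and 72 h, that of the hydrolases 0.25, 0.25 and 0.07, and that of the pump subunits 0.28, 0.16 and -0.03. The test of whether the effect changes between times (an F-test in limma) called 0 of 33 genes, beside 3.49% of all probe sets, and 3 genes had an unadjusted p under 0.05, beside 18.9% of all probe sets.

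**Figure D2:**
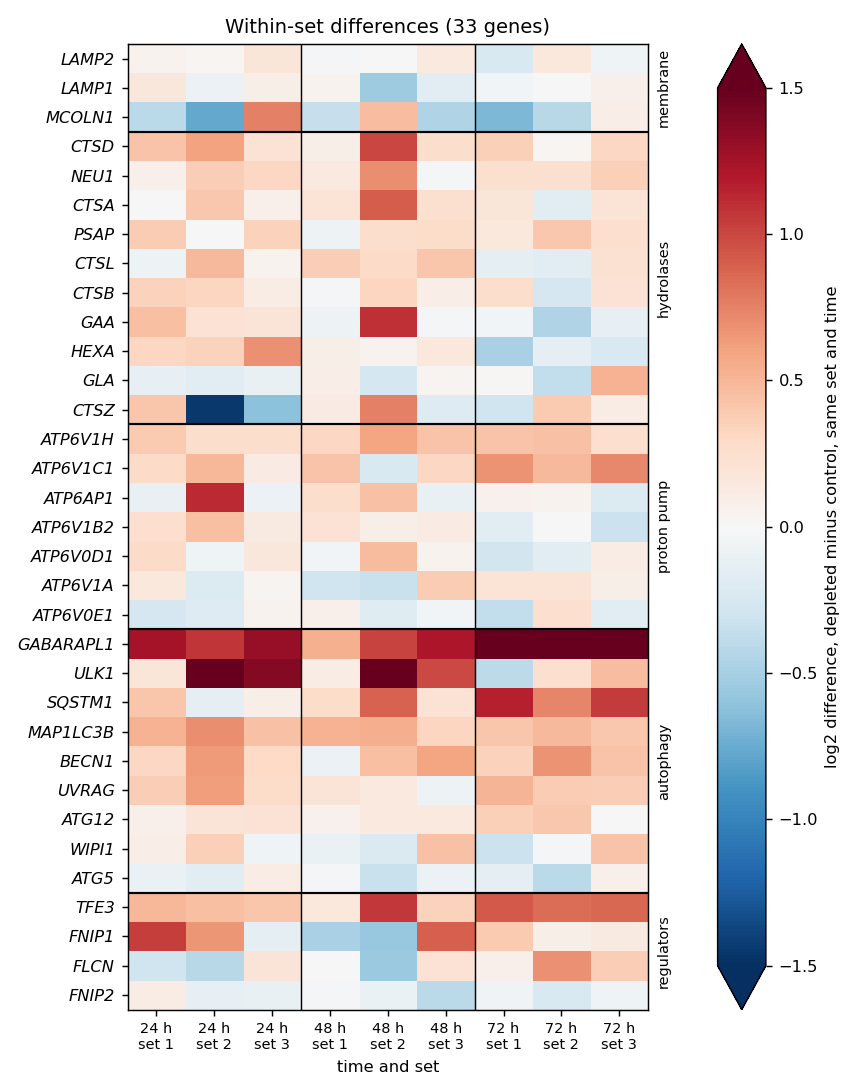
Differences of depleted from control arrays paired by set and time, as log2 differences in log2(signal + 16), for 33 genes in rows and the 9 pairs in columns; red is higher and blue lower in depleted cells, and the colour scale ends at 1.5 in either direction. GABARAPL1, MAP1LC3B, TFE3, ATP6V1H and CTSD are higher in 9 of 9 pairs, while every role also holds genes that mix both colours.

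Among the autophagy genes GABARAPL1 had the greatest averaged change. It encodes a GABARAP family protein that is joined to the autophagosome membrane. Its signal in control cells was 157.3, 143.5 and 124.5 at 24 h in sets 1, 2 and 3, and 396.6, 318.5 and 332.5 in depleted cells. At 48 h control cells gave 167.6, 124.0 and 147.1 and depleted cells 250.6, 266.2 and 363.0. At 72 h the control values were 187.5, 163.1 and 164.6 and the depleted values 599.2, 515.2 and 525.2. The groups did not overlap at any time, and the highest values of all were those of depleted cells at 72 h. On the log2(signal + 16) scale the difference was 1.21, 0.92 and 1.58 at the 3 times (limma adjusted p = 0.00139, 0.0162 and 4.35e-05), which is 2.31-, 1.89- and 3.00-fold. Averaged, it was 1.24 (SE 0.09, adjusted p = 3.17e-06), and without set 2 it was 1.25 (adjusted p = 0.00167). At 24 h the call was lost without set 1 or set 3 (0.142 and 0.147). The call at 48 h was lost without the block (adjusted p = 0.127), without set 2 (0.136), and on leaving out either 48 h array of set 2 or of set 3 (0.0578 to 0.0750). A further probe set of the gene gave 1.22 averaged over the times (adjusted p = 6.6e-06).

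MAP1LC3B encodes LC3B, a widely used marker of autophagosomes. Control cells gave 804.2, 1085.8 and 896.7 at 24 h, and depleted cells 1161.0, 1773.5 and 1217.3. The values were 798.2, 1047.9 and 927.3 against 1150.5, 1539.8 and 1165.4 at 48 h, and 822.0, 996.3 and 896.0 against 1099.3, 1406.0 and 1192.6 at 72 h. All 3 depleted arrays lay above all 3 control arrays at each time, and set 2 was the highest in each group. The averaged difference was 0.48 (SE 0.07, limma adjusted p = 0.000556), or 1.40-fold, and it was 0.44 without set 2 (0.0117). Single times gave 0.55, 0.46 and 0.44 (adjusted p = 0.0284, 0.0962 and 0.0274). The call at 24 h was lost on leaving out any of the 6 arrays of that time (0.0616 to 0.134), and so was that at 72 h (0.0584 to 0.110). A dimmer probe set of MAP1LC3B gave 0.20 (adjusted p = 0.072), and with the mean over both the 24 h difference was 0.32 (0.0734).

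SQSTM1 encodes p62, a receptor that brings ubiquitin-tagged cargo to autophagosomes and is itself degraded with it. Its signal at 24 h was 922.7, 1046.8 and 1481.9 in control and 1239.1, 947.4 and 1578.8 in depleted cells, and these ranges overlapped. At 48 h they were 829.0, 801.9 and 1263.9 against 1005.2, 1489.3 and 1472.0. At 72 h control cells gave 730.4, 1022.2 and 945.2 and depleted cells 1665.2, 1706.4 and 1976.3, with no overlap. The difference was 0.12 at 24 h (limma adjusted p = 0.786), 0.46 at 48 h (0.248) and 0.98 at 72 h (SE 0.18, adjusted p = 0.00313), the last 1.98-fold. Between 24 and 72 h the effect differed by 0.86 with an adjusted p of 0.0765. The averaged difference of 0.52 (SE 0.11, adjusted p = 0.00516) was not called without the block (0.0618), and it was 0.54 without set 2 (0.0108). Of the 4 other tested probe sets of SQSTM1, 2 were called, at 0.45 and 0.79, and 2 were not, at 0.21 and 0.29.

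UVRAG and BECN1 encode parts of the lipid kinase complex that starts and matures autophagosomes. UVRAG gave 179.8, 155.1 and 197.7 in control and 237.4, 248.0 and 243.1 in depleted cells at 24 h, and 199.1, 170.7 and 189.0 against 229.0, 190.3 and 178.5 at 48 h. At 72 h the values were 228.2, 247.1 and 238.1 against 330.6, 327.5 and 313.3. UVRAG thus separated the groups at 24 and 72 h and not at 48 h. Its averaged difference was 0.31 (SE 0.08, limma adjusted p = 0.0146), 0.0861 without the block, 0.0567 with no filter on dim probe sets, and the difference was 0.27 without set 2 (0.0816). The 72 h difference of 0.42 (adjusted p = 0.0488) was no longer called in 16 of 18 leave-one-array-out fits (0.0514 to 0.175).

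BECN1 in control cells gave 343.9, 146.1 and 305.8 at 24 h, 321.4, 171.4 and 266.0 at 48 h, and 283.0, 189.7 and 296.8 at 72 h. In depleted cells it gave 431.4, 236.7 and 380.1, then 300.6, 239.9 and 409.6, then 364.3, 312.2 and 405.0. Set 2 was the lowest in every group, and the depleted array was higher in 8 of 9 pairs, the exception being set 1 at 48 h. The averaged difference was 0.41 (SE 0.10, limma adjusted p = 0.016). It was not called without the block (0.273) or without set 2 (0.32, adjusted p = 0.0986). A further probe set of BECN1 gave 0.38 (0.012).

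The other 4 autophagy genes did not pass the test. ULK1, the kinase that starts autophagy, had an averaged difference of 0.81 with a wide 95% interval of 0.24 to 1.39 (limma adjusted p = 0.0561). Its control signals in set 2 were 4.1 at 24 h and 1.7 at 48 h, against 26.9 to 59.2 on the control arrays of the other sets at these times, and without set 2 the difference was 0.45 (0.177), whereas without set 1 it was 1.24 (0.0477). Its estimates at 24 and 48 h, 1.26 and 1.08, lay above those of GABARAPL1 but had an SE of 0.46 and were not called. ATG12, a small protein of the conjugation machinery, was at 0.18 (interval -0.02 to 0.37) and its partner ATG5 at -0.12 (-0.29 to 0.05). WIPI1, which binds the lipid made by the kinase complex, was at 0.07 (-0.18 to 0.32).

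**Figure D3:**
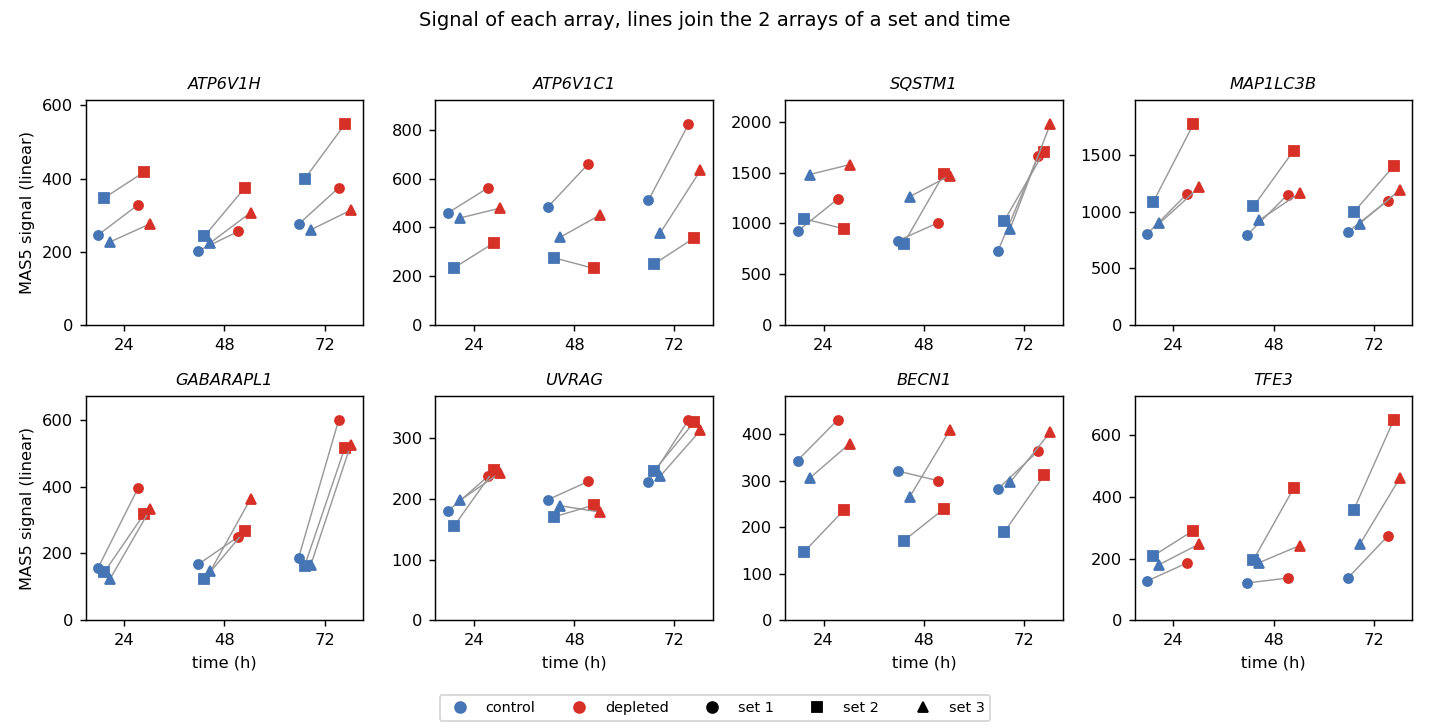
Deposited MAS5 signal of each array (y axis, linear, from 0) at 24, 48 and 72 h for the 8 genes called in the averaged effect; blue marks control and red depleted cells, the shape gives the set, and a line joins the 2 arrays of a set and time. At 72 h GABARAPL1 has control arrays at 163.1 to 187.5 and depleted arrays at 515.2 to 599.2.

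Of the regulators TFE3 rose. TFE3 is a transcription factor of the TFEB family. Control cells gave 127.8, 209.3 and 181.1 at 24 h, 121.6, 196.6 and 187.7 at 48 h, and 136.7, 358.4 and 246.4 at 72 h. Depleted cells gave 186.8, 291.5 and 248.0, then 137.3, 428.3 and 242.7, then 273.9, 650.7 and 461.8. The depleted array was higher in 9 of 9 pairs, but the groups overlapped at each time, with set 2 the highest and set 1 the lowest throughout. The averaged difference was 0.62 (SE 0.10, limma adjusted p = 0.00174), or 1.53-fold. It was not called without the block (0.157) and was 0.53 without set 2 (0.0109). At 72 h it was 0.87 (adjusted p = 0.00619), and 0.279 was the adjusted p there without the block. A further probe set gave 0.59 (0.012). With the mean over the probe sets the 72 h difference was 0.65 and not called (0.109).

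TFEB was dim. Its signal at 24 h was 5.5, 4.4 and 5.2 in control and 1.7, 6.1 and 2.6 in depleted cells. At 72 h control cells gave 2.3, 18.5 and 17.6 and depleted cells 4.2, 54.6 and 34.2. With a mean signal of 13.8 over all arrays it lay under the limit of 19.6 used for testing, so these values are given without a test. FLCN had a difference of 0.03 (interval -0.20 to 0.26), FNIP1 of 0.22 (-0.09 to 0.54) and FNIP2 of -0.11 (-0.30 to 0.08), none of them called. FNIP1 varied widely, from 242.6 to 1116.6 over the arrays. A dimmer FNIP1 probe set was called at 0.43 (limma adjusted p = 0.028), and was at 0.43 without set 2 (0.0601).

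Of the proton pump, 2 subunits of the cytosolic V1 part rose. ATP6V1H, a regulatory V1 subunit, gave 245.8, 346.8 and 226.9 in control and 328.7, 418.0 and 276.4 in depleted cells at 24 h. At 48 h the values were 202.5, 242.6 and 224.6 against 255.8, 373.6 and 306.6, and at 72 h 275.3, 398.7 and 259.7 against 374.9, 548.1 and 313.5. The depleted array was higher in all 9 pairs, and the groups were fully apart at 48 h only. The averaged difference was 0.38 (SE 0.08, limma adjusted p = 0.00857), 0.179 without the block, and 0.35 without set 2 (0.0522). Another ATP6V1H probe set was at -0.02, and the mean over the probe sets of the gene was not called (0.18, adjusted p = 0.116).

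ATP6V1C1, the V1 subunit that joins the catalytic head to the membrane part, gave 458.8, 233.4 and 438.2 in control and 561.8, 336.3 and 478.5 in depleted cells at 24 h. At 48 h it gave 484.3, 274.7 and 359.2 against 659.6, 231.3 and 450.9, and at 72 h 510.1, 250.2 and 377.7 against 822.3, 357.4 and 633.5. Set 2 was the lowest in each group. The averaged difference was 0.37 (SE 0.09, limma adjusted p = 0.0137), 0.457 without the block, and 0.42 without set 2 (0.0223). At 72 h it was 0.63 (adjusted p = 0.0154; 0.484 without the block). That call was lost without the depleted 72 h array of set 1 or of set 3, or without the control 72 h array of set 3 (0.0568 to 0.0674). Of 3 other tested probe sets 1 was called, at 0.36, and 2 were not, at 0.17 and 0.29. With the mean over its probe sets ATP6V1C1 was at 0.27 at 72 h and not called (0.292).

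The other 5 pump genes were not called, with averaged differences from -0.09 in ATP6V0E1 to 0.16 in ATP6AP1, an accessory subunit. ATP6V1A and ATP6V1B2, which form the catalytic head, were at 0.03 (interval -0.22 to 0.27) and 0.09 (-0.07 to 0.24). ATP6V0D1, which has the motif in its promoter, was at 0.06 (-0.14 to 0.26).

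On the probe sets that stood for them, the hydrolases did not pass the test in any of the 4 depletion contrasts. A dimmer HEXA probe set was called higher in the averaged effect. CTSD, the aspartic protease cathepsin D, was higher in 9 of 9 pairs but had an averaged difference of 0.37 with an interval of 0.03 to 0.71 (limma adjusted p = 0.142). NEU1, the lysosomal sialidase, was at 0.27 (0.07 to 0.47, adjusted p = 0.0714), and PSAP, which is cut into activators of sphingolipid hydrolases, at 0.22 (0.06 to 0.39, adjusted p = 0.0652). These 2 were called under some other settings: NEU1 (0.0352) and PSAP (0.0157) with quantile normalization, and both with a pseudocount of 64 or an intensity trend in the prior variance. CTSA, which protects NEU1, was at 0.23 (adjusted p = 0.163). The cysteine cathepsins CTSB, CTSL and CTSZ were at 0.15, 0.16 and -0.08. The glycosidases GAA, GLA and HEXA, which act on glycogen, on globotriaosylceramide and on gangliosides, were at 0.14, -0.04 and 0.09.

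HEXA, the alpha subunit of beta-hexosaminidase, showed opposite differences at 24 and 72 h on its brightest probe set. Its signal was 476.8, 447.3 and 426.5 in control and 593.5, 573.9 and 695.4 in depleted cells at 24 h. At 48 h it was 530.4, 506.9 and 628.6 against 566.8, 527.6 and 703.0, and at 72 h 526.0, 501.7 and 547.4 against 370.6, 454.6 and 465.7. Depleted arrays were thus all above control arrays at 24 h and all below them at 72 h. The difference was 0.45 at 24 h (limma adjusted p = 0.0986) and -0.28 at 72 h (0.192), neither of them called. The change between these times was -0.73 (SE 0.19, adjusted p = 0.0446), beside 4.58% of all probe sets called in either direction. It was -0.85 without set 2 (0.0919), and leaving out 1 array took the call away in 14 of 18 fits (0.0539 to 0.121). Of the 3 tested HEXA probe sets 1 was called higher in the averaged effect, and it was not the brightest. The second brightest gave 46.4, 19.2 and 57.3 in control and 31.5, 86.8 and 59.8 in depleted cells at 72 h.

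Counted without the test, all 3 depleted arrays lay above all 3 control arrays in 6 of 33 genes at 24 h, 3 at 48 h and 6 at 72 h, against 7.5%, 8.07% and 11.5% of all probe sets. They lay below in 0, 0 and 2 genes, against 5.28%, 3.77% and 11.6%. The 2 genes below at 72 h were HEXA and FNIP2. All 9 pairs pointed up in 5 genes, against 3.61% of all probe sets, and all 9 down in 0, against 3.48%.

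The membrane proteins LAMP1, LAMP2 and MCOLN1 were not called. LAMP1, with LAMP2 an abundant protein of that membrane, was at -0.05 (interval -0.23 to 0.13, limma adjusted p = 0.754), and its sign turned with quantile normalization (0.07). MCOLN1, a calcium channel, was at -0.20 (-0.52 to 0.13, limma adjusted p = 0.437). It was dim, with a mean signal of 39.5 against the limit of 19.6 used for testing. LAMP2 was at 0.03 (-0.13 to 0.18, adjusted p = 0.85), with its sign turned by centring arrays on the 75th percentile (-0.02).

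LAMP2 had 4 tested probe sets that did not move together. The brightest, used above, was at 0.03, while the second was at 0.43 (limma adjusted p = 0.0062) and the third at 0.64 (0.00019). For the third, control cells gave 405.1, 425.5 and 332.1 at 24 h, 379.4, 405.5 and 279.4 at 48 h, and 498.3, 382.8 and 365.9 at 72 h. Depleted cells gave 667.5, 602.5 and 569.2, then 594.3, 517.9 and 541.0, then 703.9, 659.3 and 591.8, and the groups were apart at each time. Without the block its adjusted p was 0.0042, and without set 2 the difference was 0.69 (0.00365). For the second, the adjusted p was 0.23 without the block, and the difference was 0.55 without set 2 (0.00679). The second was not called without set 1 or set 3 (0.159 and 0.184), and the third was (0.0357 and 0.0469). Both kept their call in all 18 fits without 1 array. The fourth was at 0.17 and not called. Which part of the LAMP2 transcripts each probe set reads was not looked up here. With the mean over its probe sets LAMP2 was at 0.32 (0.00656). Over the 78 tested probe sets of the 33 tested genes, 18 were called higher in the averaged effect, for 11 genes, and 0 lower. Of all probe sets tested, 8.55% were called higher and 6.46% lower. Several of the 18 read the same gene, so they are not separate results.

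**Figure D4:**
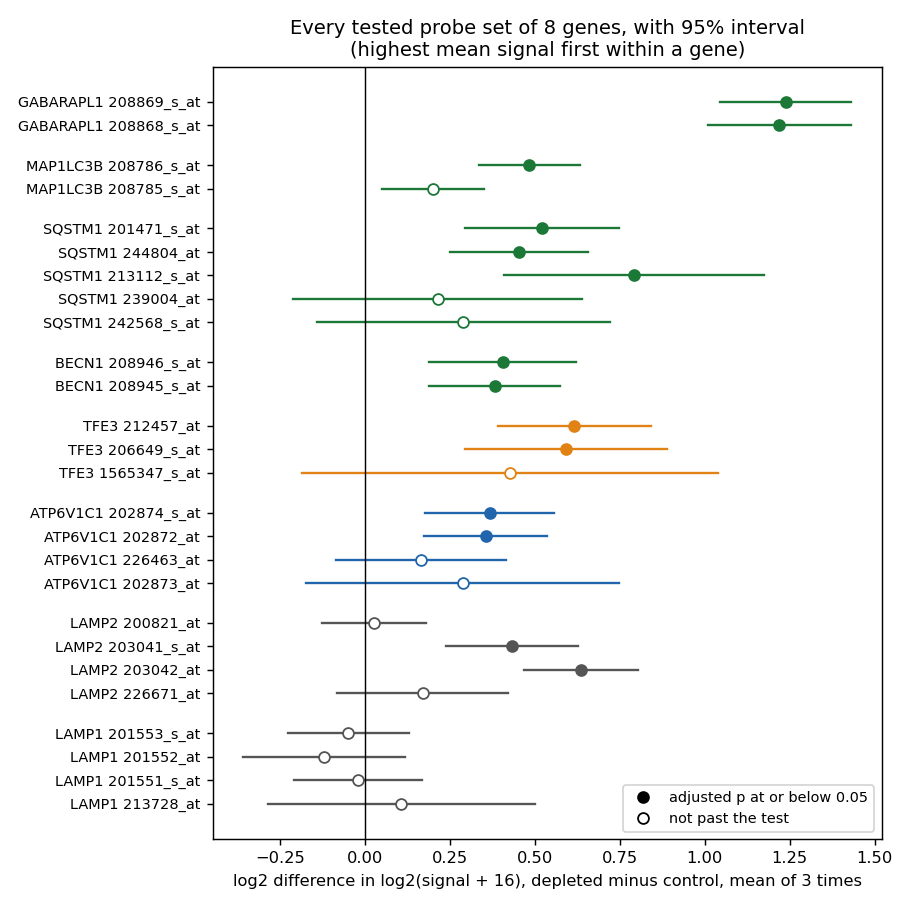
Averaged log2 difference in log2(signal + 16), depleted minus control, with 95% intervals on the x axis, for every tested probe set of 8 genes on the y axis, the brightest first; filled points passed the test. The probe sets of GABARAPL1 lie at 1.24 and 1.22, whereas those of LAMP2 run from 0.03 to 0.64 and none of LAMP1 was called.

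Time in culture itself was compared as 72 h against 24 h. In control cells limma called 0 of 33 genes, beside 1.22% of all probe sets, and at an unadjusted p under 0.05 it gave 3 higher and 2 lower, beside 7.62% and 6.84%. In depleted cells 3 of 33 genes were called, a share no higher than the 10.3% of all probe sets. TFE3 rose by 0.83 (limma adjusted p = 0.0115), GABARAPL1 rose by 0.63 (0.0213) and HEXA fell by 0.52 (0.0271). The same change in control cells was 0.41, 0.25 and 0.22 in these genes, none called. The difference between depleted and control cells in this change was 0.42 for TFE3 (adjusted p = 0.403) and 0.37 for GABARAPL1 (0.382), so only that of HEXA, above, passed the test. Without the block 0 of the 3 were called, and without set 2 TFE3 alone was (0.0402). The call of TFE3 was lost without either depleted array of set 2 at 24 or 72 h (0.0529 and 0.0596). That of HEXA was lost without any depleted 24 h array or the depleted 72 h array of set 1 or 3 (0.0666 to 0.131). That of GABARAPL1 was lost without any depleted 72 h array or the depleted 24 h array of set 2 or 3 (up to 0.0798).

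Other genes of the same pathways were taken from a list of 105 names, of which 89 were tested. Averaged over the times, 15 of them were higher and 7 lower in limma with the block, and 1 and 2 without it. Of all probe sets tested, 8.55% were called higher and 6.46% lower with the block, and 2.73% and 1.53% without it. The other autophagy genes had 8 of 31 higher and 0 lower, the other pump subunits 0 of 11 in either direction, and the other hydrolases and lysosomal proteins 4 of 32 higher and 5 lower. Of 15 other regulators 3 were higher and 2 lower.

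The greatest rise was in RRAGD, a Rag GTPase that recruits TFEB and TFE3 to the lysosome. Its signal ran from 80.8 to 217.9 with a median of 134.1 in control arrays and from 242.6 to 529.1 with a median of 288.1 in depleted arrays, with no overlap. The difference was 1.10 (SE 0.11, limma adjusted p = 4.8e-05; 0.000343 without the block), and it was 1.13 without set 2. The related RRAGC was at 0.51 (adjusted p = 0.00436), the cargo receptor OPTN at 0.61 (0.0129) and EPG5, a tether for fusion with the lysosome, at 0.58 (0.00407). The greatest falls were in ARSB, a sulphatase, at -0.68 (0.0021), and CTSC, a cathepsin that activates serine proteases, at -0.67 (0.000194). LAMTOR2 and LAMTOR4, subunits of the scaffold that holds the Rag GTPases on the lysosome, were at -0.63 (0.0026) and -0.50 (0.0114). Each of these 4 was lower in 9 of 9 pairs. Without the block RRAGD, CTSC and LAMTOR4 were still called (0.000343, 0.019 and 0.0365). Without set 2 all 8 were at or past the test except RRAGC (0.0547), and all 8 kept their call in the 18 fits without 1 array. Without set 1 RRAGD, CTSC and ARSB were called and the other 5 were not (0.0681 to 0.159). Without set 3 RRAGD, CTSC and LAMTOR2 were called and the other 5 were not (0.0541 to 0.165).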

How the data were processed

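The authors' deposited values were MAS5 signal intensities on a linear scale, 1 value for each of 54675 probe sets on 18 arrays, made with MAS5 per the submitters' processing notes. No version is given there, and detection calls were not used here. All sample columns were used, and 0 pairs of arrays were identical. Signals were used as log2(signal + 16), which understates fold changes of dim genes. Tests covered the 27307 brighter probe sets, whose mean reached the median of 5.15 (signal 19.6), without the 62 controls.

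limma 3.58.1 under R 4.3.3 fitted all 18 arrays with 6 group means and the set as a block, and p-values were adjusted by Benjamini-Hochberg over all probe sets at 0.05. It was tested on simulated data. The sets come from the running number in the sample titles. After group means were removed, arrays of the same set correlated at 0.302 to 0.602 (45 pairs) and arrays of different sets at -0.48 to 0.163 (90 pairs), and 18 of 18 arrays correlated best with an array of their own set. Plots used matplotlib 3.10.9 (Python 3.11.15).

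The members and lists were chosen with earlier results of these data known. All 34 genes were named. Genes called in any depletion contrast or in the F-test get values by array, and of the wider pathway list the 4 greatest rises and falls were named. HEXA, ULK1, TFEB and the LAMP2 probe sets were described by array after their values were seen. Alternatives were the fit without the block, pseudocounts of 1 and 64, no filter, centring on the 75th percentile, quantile normalization, the mean over a gene's probe sets, an intensity trend in the prior variance, and leaving out each array or set. Of the 34 symbols all 34 equal the current RefSeq symbol.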

Additional observations from a re-analysis of the deposited data

Results flagged for a closer look

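On the brightest HEXA probe set the effect of depletion differed between 24 and 72 h by -0.73 on the log2 scale (limma adjusted p = 0.0446). This was the only call among 33 genes in that contrast, a share not above the 4.58% of all probe sets. Depleted arrays lay above control arrays in all 3 sets at 24 and 48 h and below in all 3 at 72 h. The F-test over the times gave an adjusted p of 0.104 for this probe set, and the difference was not called in 14 of 18 fits without 1 array. GAA pointed up in all 3 sets at 24 h and down in all 3 at 72 h, and the difference of -0.49 did not pass the test (adjusted p = 0.462). ATP6V1B2 pointed up in all 3 sets at 24 and 48 h and down in all 3 at 72 h, and the difference of -0.44 did not pass it either (0.185).

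In the wider pathway list the effect changed with time by the F-test in SCARB2, the receptor that carries glucocerebrosidase to lysosomes (adjusted p = 0.0336), and in TFEC, a relative of TFEB (0.0315). No other gene of the 89 tested there was called by it, so the share called was not above the 3.49% of all probe sets. From 24 to 72 h the effect on SCARB2 changed by -1.03, from 0.80 to -0.23, and that on TFEC by -0.96, from 0.76 to -0.20 (limma adjusted p = 0.0136 and 0.0142 for these changes). Without set 2 the adjusted p of the F-test was 0.170 for SCARB2 and 0.0886 for TFEC. Groups of 3 arrays were not searched for single outlying arrays.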

How the results depend on the processing

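In each setting run, 0 of the tested members were called lower in the depletion contrasts. With no replicate block the numbers of members called were 1 at 24 h, 0 at 48 h, 2 at 72 h, 2 averaged over the times, and 0 for culture time in depleted cells. With no filter on low probe sets they were 1, 0 and 3 at 24, 48 and 72 h, and 1 for culture time in depleted cells. Centring on the 75th percentile gave 1 at 24 h, quantile normalization 2 at 48 h, and a pseudocount of 64 gave 5 for culture time in depleted cells. The intensity trend gave 2 at 48 h, 5 and 1 for culture time in depleted and control cells, and 1 in the F-test (HEXA). The mean over a gene's probe sets gave 1 in the F-test (GABARAPL1). Leaving out an array or a set gave 0 to 2 calls at 24 h, 0 to 1 at 48 h, 1 to 6 at 72 h, 2 to 10 averaged over the times, and 0 to 3 for culture time in depleted cells. At 72 h 3 calls were left without the control array of set 3 or the depleted array of set 1 or 3. Calls over all probe sets moved with the setting too, so these counts alone do not show a change particular to the members. Averaged, 1448 of 54613 probe sets were called higher and 1037 lower with no filter, against 2334 and 1763 of 27307 with it. On leaving out, the median difference ran from 0.052 to 0.14 in the pump subunits, from 0.13 to 0.20 in the hydrolases and from 0.32 to 0.47 in the autophagy genes, and centring on the 75th percentile gave 0.038 and 0.11 in the first 2.

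Members not called in the averaged effect whose sign changed were LAMP1 (0.068 with quantile normalization; -0.10 to 0.030 on leaving out), LAMP2 (-0.022 with the 75th percentile; -0.0027 to 0.073; called at 0.32 with the mean over probe sets), ATP6V1A (-0.021; -0.055 to 0.096) and FLCN (-0.019; -0.087 to 0.092). ATG5 was at 0.00055 and FNIP2 at 0.074 with the mean over probe sets. On leaving out arrays or sets CTSZ ran from -0.20 to 0.025, GLA from -0.13 to 0.073, ATP6AP1 from -0.031 to 0.31 and WIPI1 from -0.031 to 0.16. The causes were not tested. ULK1 was called with a pseudocount of 64 (0.44, limma adjusted p = 0.0251), the mean over probe sets (0.0484), the intensity trend (0.026) and without set 1 (0.0477). Over all probe sets the averaged effect had 2334 higher and 1763 lower calls, and 1665 and 2193 after centring on the 75th percentile, which moved the median of all probe sets from 0.025 to -0.023. Signal near background limits TFEB, MCOLN1 and ULK1.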
